A study of Homo sapiens with 6 samples.

Results

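Transcript levels of 52 genes that carry histone H3 to and from chromatin, or that write, erase or read methyl groups on its lysines, were examined in U2OS cells treated with siRNA against the histone variants H3.X and H3.Y. The genes were chosen by name, with earlier results of these data known. They are 21 H3 chaperones and their partners, 17 methyltransferases and complex subunits, 11 demethylases and the 3 HP1 proteins. Every probe set with exactly 1 gene symbol that was one of these names, or was updated to one through RefSeq's gene table, was taken. This includes a second EHMT1 probe set that the platform lists under the intronic transcript EHMT1-IT1. All 52 were measured, by 62 probe sets, among 18395 named genes on the array. U2OS is an established human osteosarcoma line, and the sample labels also spell it U20S and U2O2. The cells were grown in DMEM with fetal calf serum, transfected 2 times with siRNA and harvested on day 4. The 6 arrays fell into 3 groups of 2 arrays, which received siRNA against luciferase (the control, with no target among the cell's own genes), against H3.Y, or against the pair of variants H3.X and H3.Y, a treatment named the combined knockdown here. Whether it was made with several siRNAs or with 1 that matches both transcripts is not in the labels, and no group with H3.X siRNA alone was analysed here. Replicates are labelled as biological, but nothing says that they came from separate cultures, and the p-values cover only the spread among the 6 arrays, which may be technical.

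Histone H3 is escorted by chaperones from its synthesis to its place in the nucleosome. Chromatin assembly factor 1 deposits H3 behind the replication fork, the HIRA complex and the DAXX-ATRX pair deposit the variant H3.3 outside replication, HJURP places the centromeric variant CENP-A, and FACT opens and reassembles nucleosomes as polymerases pass. Methyltransferases then mark lysines of the H3 tail: the KMT2 and SETD1 enzymes mark active promoters and enhancers, Polycomb repressive complex 2 and the SUV39H, EHMT and SETDB1 enzymes mark silent chromatin, and the KDM enzymes remove these groups. HP1 proteins bind the mark left by the SUV39H enzymes and are a defining part of heterochromatin.

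Deposited log2 values covered 33297 probe sets on each array, and array medians lay between 5.10 and 5.14. Among probe sets with exactly 1 gene symbol, the number named for H3Y1 (H3.Y) or H3Y2 (H3.X) was 0, so the knockdown itself was not analysed here. Probe sets with several symbols were not searched for these 2 names. Across all arrays, 5% of values lay below 1.78, 10% below 2.15 and 25% below 3.33, which gives the region in which a probe set carries little signal. Of the 10 osteoblast lineage markers measured, VIM and SPARC were among the bright ones, while IBSP lay near the dim end. The markers' mean ranged from 6.71 to 7.28 per array. Their median was lower, from 5.60 to 6.21, and their lowest value lay between 3.05 and 3.36, so the list was not bright throughout. The 6 blood markers measured had means between 3.94 and 4.27, with PTPRC near the dim end. The bright one among them, CD68, a lysosomal protein of macrophages and other cells, measured 8.66 and 8.37 with luciferase siRNA, 9.68 and 9.24 with H3.Y siRNA and 8.28 and 7.68 in the combined knockdown, and it was lower in the last than with H3.Y siRNA (limma adjusted p = 0.0314). The 8 epithelial markers had means of 6.55 and 6.36 with luciferase siRNA, 6.05 and 6.20 with H3.Y siRNA and 7.11 and 7.01 in the combined knockdown. Their medians were 5.30 and 5.33, then 4.99 and 5.01, and then 6.51 and 6.28, so the rise was not confined to the brightest genes. The epithelial list includes KRT8 and KRT18, which were bright on every array. The part of CD68 and of this list in the differences given below was not tested.

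Of the 62 probe sets, 4, for 4 genes, passed the test in at least 1 comparison: SUZ12 after H3.Y siRNA, and CHAF1B, SSRP1 and CBX3 in the combined knockdown. The test was limma's moderated test on all 6 arrays, with Benjamini-Hochberg adjustment over all 33297 probe sets and a call at an adjusted p under 0.05. The promoters of these 4 genes are shown here because the members that moved differ in whether the window holds a site for E2F factors, the regulators of genes used when DNA is replicated. The RefSeq windows (assembly GRCh38.p14) run from 250 bases before to 50 bases after the start site and were found for 47 of the 52 genes. They were searched on both strands for TTTCCCGC, TTTGGCGC, TTTCGCGC and TTTGCCGC as E2F sites, and a match is a description of the letters, not of binding. The parts before the start site are printed in the direction of transcription, extended past it by 4 bases for CBX3 because its site spans the start, with E2F sites in capitals. SUZ12 lies at chr17:31936757-31937006 (plus strand), CHAF1B at chr21:36385142-36385391 (plus strand), SSRP1 at chr11:57335893-57336142 (minus strand) and CBX3 at chr7:26201193-26201446 (plus strand).
SUZ12: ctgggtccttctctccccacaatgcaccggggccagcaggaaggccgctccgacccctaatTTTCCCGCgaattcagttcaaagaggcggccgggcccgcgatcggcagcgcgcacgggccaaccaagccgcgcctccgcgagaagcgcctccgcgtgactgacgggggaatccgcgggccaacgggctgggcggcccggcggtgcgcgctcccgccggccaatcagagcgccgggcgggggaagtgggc
CHAF1B: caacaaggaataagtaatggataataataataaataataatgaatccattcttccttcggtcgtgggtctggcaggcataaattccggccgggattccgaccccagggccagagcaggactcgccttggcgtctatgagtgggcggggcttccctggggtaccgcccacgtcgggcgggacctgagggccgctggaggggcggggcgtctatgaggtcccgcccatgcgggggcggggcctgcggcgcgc
SSRP1: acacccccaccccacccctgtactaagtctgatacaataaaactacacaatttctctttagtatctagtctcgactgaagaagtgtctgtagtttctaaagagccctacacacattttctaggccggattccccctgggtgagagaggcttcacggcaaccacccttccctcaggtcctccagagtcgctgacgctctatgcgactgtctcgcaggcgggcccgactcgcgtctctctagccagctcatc
CBX3: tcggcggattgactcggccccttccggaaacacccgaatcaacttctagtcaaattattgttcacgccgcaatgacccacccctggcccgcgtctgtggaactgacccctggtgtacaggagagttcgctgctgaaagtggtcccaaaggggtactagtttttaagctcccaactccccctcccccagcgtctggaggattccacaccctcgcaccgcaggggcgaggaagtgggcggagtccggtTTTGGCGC
An E2F site was found in the windows of 6 of the 47 genes (12.77%), namely HIRA, DNAJC9, EZH1, EZH2, SUZ12 and CBX3, against 3.325% of all 27305 windows of the same length and 4.438% of the 15842 windows of protein-coding genes. The windows of CHAF1B and SSRP1 held none of the searched E2F motifs. A CCAAT box (CCAAT, both strands) was found in 19 of the 47 (40.43%), against 35.7% of all windows and 36.35% of those of protein-coding genes. A CHR element (TTTGAA or TTCGAA, both strands) was found in 6 of the 47 (12.77%), against 16.62% and 13.48%. Of the 4 windows shown, SUZ12 alone held all 3 kinds of motif, and EZH1 and EZH2, which share the E2F motif with SUZ12, are described with it below.

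After H3.Y siRNA, 1 of the 62 member probe sets was called, against 0.279% of all probe sets and 0.512% of the 12313 probe sets with exactly 1 symbol and a mean of at least 5 log2 units. In the combined knockdown 3 were called, against 1.84% and 3.82% by the same rules. Between the 2 knockdowns 4 were called, against 4.67% and 9.34%. Each count is small, and the combined knockdown's members were called in a share (5.08% of the 59 probe sets with a mean of at least 5) near the background. At an unadjusted p under 0.05, the members with a mean of at least 5 that lay lower made up 8.47% after H3.Y siRNA (background 13.5%), 23.7% in the combined knockdown (background 13.7%) and 15.3% between the knockdowns (background 14.5%). Those that lay higher made up 6.78% (background 9.06%), 5.08% (background 12.5%) and 8.47% (background 17.7%). The 14 lower probe sets of the combined knockdown stood for 11 genes, since DAXX gave 3 of them and NPM1 gave 2.

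**Figure D1:**
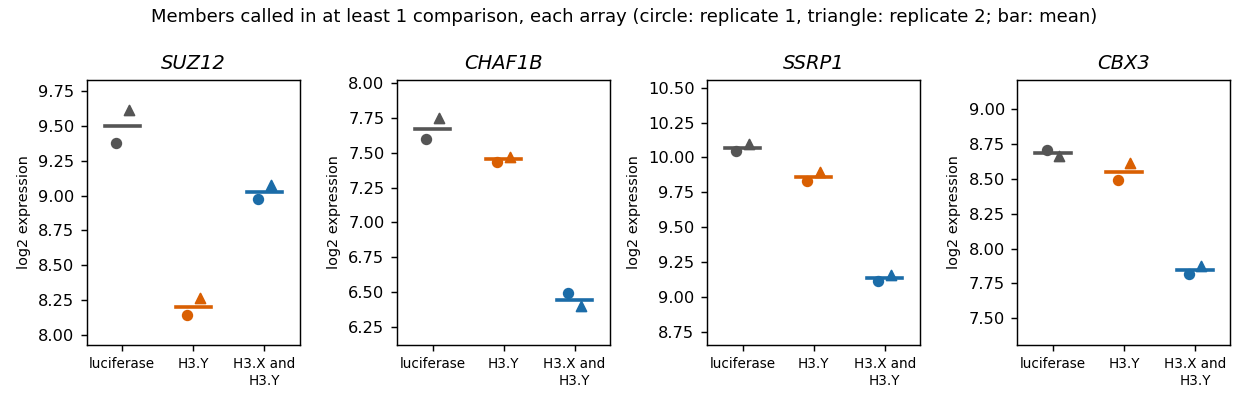
Log2 values of SUZ12, CHAF1B, SSRP1 and CBX3 on each of the 6 arrays, as points by siRNA group, with a bar at each group's mean. SUZ12 is lowest on the H3.Y siRNA arrays (8.14 and 8.26), and the other three are lowest on the combined knockdown arrays.

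Transcripts of all 3 subunits of chromatin assembly factor 1 lay below luciferase in the combined knockdown, and 1 passed the test. CHAF1B, the p60 subunit that binds ASF1, measured 7.60 and 7.75 log2 units with luciferase siRNA, 7.44 and 7.47 with H3.Y siRNA, and 6.49 and 6.40 in the combined knockdown. The arrays of the combined knockdown lay below all others. CHAF1B fell by 1.23 (SE 0.13, adjusted p = 0.0182), which is 2.34-fold lower, and it also lay 1.01 (SE 0.13) below the H3.Y siRNA arrays, 2.01-fold lower (limma adjusted p = 0.0163). After H3.Y siRNA alone its difference was -0.22 (95% interval -0.54 to 0.10, adjusted p = 0.532). CHAF1A, the large subunit, differed from luciferase by -0.36 after H3.Y siRNA and -0.28 in the combined knockdown, and RBBP4, the subunit shared with deacetylase and Polycomb complexes, by -0.26 and -0.19, all 4 uncalled. Both had every knockdown array below both luciferase arrays. The call of CHAF1B against luciferase was lost without either luciferase array (adjusted p = 0.132 and 0.174) and without either combined knockdown array (0.165 and 0.124), which also leaves fewer degrees of freedom, while the difference stayed between -1.30 and -1.15.

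FACT, a dimer of SPT16 and SSRP1, was lower in both subunits, and 1 passed the test. SSRP1 measured 10.04 and 10.10 with luciferase siRNA, 9.83 and 9.89 with H3.Y siRNA, and 9.12 and 9.16 in the combined knockdown. The 3 groups did not overlap. SSRP1 fell by 0.93 (SE 0.12, adjusted p = 0.0266), 1.91-fold, in the combined knockdown and lay 0.72 (SE 0.12) below the H3.Y siRNA arrays (limma adjusted p = 0.0317). After H3.Y siRNA alone the difference was -0.21 (95% interval -0.51 to 0.09, adjusted p = 0.530). A second SSRP1 probe set with a mean of only 5.06 gave -0.19 in the combined knockdown and 0.01 after H3.Y siRNA, neither called, so the fall rests on the brighter one. SUPT16H, which encodes SPT16, measured 9.56 and 9.60 with luciferase siRNA, 9.07 and 9.22 with H3.Y siRNA, and 9.18 and 9.16 in the combined knockdown. Its arrays lay below luciferase in both knockdowns, by -0.43 (SE 0.13, adjusted p = 0.217) and -0.41 (SE 0.13, adjusted p = 0.202), and the 2 knockdowns differed by 0.03. The fall of SSRP1 lost its call without either luciferase array (adjusted p = 0.159 and 0.196) or either combined knockdown array (0.238 and 0.157), at differences from -0.96 to -0.85.

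Transcripts of the HIRA complex and its histone donor ASF1A lay mostly above luciferase. After H3.Y siRNA 3 of the 5 genes did, at a median of 0.32. In the combined knockdown all 5 did, at a median of 0.19, but the arrays of HIRA and ASF1A overlapped luciferase. Over all named genes the medians were 0.01 and 0.01. Of the 5, 0 were called in either comparison, beside 0.512% and 3.82% of the bright probe sets with 1 symbol. UBN2, an ubinuclein subunit of the complex, measured 5.44 and 5.69 with luciferase siRNA, 6.36 and 5.99 with H3.Y siRNA, and 6.21 and 6.20 in the combined knockdown. All 4 knockdown arrays lay above both luciferase arrays, by 0.62 (SE 0.17, adjusted p = 0.198) and 0.65 (SE 0.17, adjusted p = 0.144). Its paralog UBN1 differed by 0.41 and 0.11 and the subunit CABIN1 by 0.32 and 0.19, with the arrays of both knockdowns above luciferase for each. HIRA itself overlapped between groups, at -0.01 and 0.11. ASF1A, which hands H3 to HIRA, measured 6.85 and 7.28 with luciferase siRNA, 6.55 and 6.80 with H3.Y siRNA, and 7.26 and 7.27 in the combined knockdown. It was thus lowest with H3.Y siRNA, but the difference between the knockdowns, 0.59 (SE 0.18), was not called (adjusted p = 0.141). ASF1B, the paralog of proliferating cells, differed from luciferase by -0.01 with H3.Y siRNA and -0.28 with both targeted.

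DAXX, the H3.3 chaperone that works with the remodeller ATRX, lay on opposite sides of luciferase in the 2 knockdowns. Its brightest probe set measured 6.95 and 6.85 with luciferase siRNA, 7.21 and 7.00 with H3.Y siRNA, and 6.48 and 6.49 in the combined knockdown. The arrays of the 3 groups did not overlap. The 3 DAXX probe sets, whose values were nearly equal and which share a gene, differed between the knockdowns by -0.62, -0.64 and -0.66 (limma adjusted p = 0.0613, 0.0591 and 0.0584), and none was called in any comparison. ATRX gave little signal, with probe set means of 4.08 and 2.04, and its differences at the brighter probe set were 0.10 after H3.Y siRNA and -0.20 in the combined knockdown.

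Among the other chaperones, values below luciferase prevailed. HJURP, the CENP-A chaperone, differed by -0.46 (adjusted p = 0.235) after H3.Y siRNA and -0.43 (adjusted p = 0.221) in the combined knockdown, and NASP, which holds the soluble pool of H3 and H4, by -0.35 and -0.31. In both genes the knockdown arrays lay below luciferase. RBBP7, a histone-binding subunit of several chromatin complexes, measured 9.19 and 9.24 with luciferase siRNA, 9.28 and 9.02 with H3.Y siRNA, and 8.54 and 8.61 in the combined knockdown. It lay lower only in the combined knockdown arrays, by -0.64 (SE 0.14, adjusted p = 0.0971) against luciferase and -0.57 (adjusted p = 0.0865) against H3.Y siRNA, uncalled. TONSL, which reads newly laid histone H4, differed by -0.15 and -0.40, and DNAJC9, a heat shock co-chaperone that binds H3 and H4, by -0.34 and -0.10. NPM1, the abundant nucleolar chaperone, had 3 bright probe sets with differences from -0.16 to -0.14 after H3.Y siRNA and from -0.40 to -0.29 in the combined knockdown, and a dim one with a mean of 3.87 at -0.10 and -0.05. The elongation factor SUPT6H differed by -0.0047 and 0.02, and NAP1L1, a chaperone mainly of H2A and H2B, by 0.04 and 0.13.

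As a class, 15 of the 21 chaperones lay below luciferase after H3.Y siRNA, at a median of -0.15 and with 0 called. In the combined knockdown 14 lay below it, at a median of -0.28 and with 2 called. Of the bright probe sets with 1 symbol, 0.512% and 3.82% were called in these comparisons. Over all 18395 named genes, 8747 and 8869 lay below luciferase, at medians of 0.01 and 0.01. Renormalising the arrays by quantiles left 12 of the 21 below after H3.Y siRNA, at a median of -0.06, and 14 of 21 at -0.20 in the combined knockdown. Several of these chaperones are known to be made with DNA replication, so the 23 genes of a cell cycle list are given beside them. Its mean level was 8.91 and 8.98 with luciferase siRNA, 8.28 and 8.49 with H3.Y siRNA, and 8.32 and 8.44 in the combined knockdown. After H3.Y siRNA 22 of the 23 lay below luciferase (median -0.44, range -1.78 to 0.31) with 0 called, and in the combined knockdown 20 did (median -0.54, range -1.49 to 0.26), where CCNA2 (-1.49), PLK1 (-1.01) and RRM1 (-1.07) fell (limma adjusted p = 0.0153, 0.0285 and 0.0213). At an unadjusted limma p under 0.05, 16 of the 23 lay lower after H3.Y siRNA and 15 in the combined knockdown. The number higher was 0 in both. Of the bright probe sets with 1 symbol, 13.5% and 13.7% lay lower by that rule. The part of the cell cycle genes in the chaperone values was not tested. In RNA from whole cultures, fewer cells of a kind and less RNA per cell cannot be told apart. Between the knockdowns the list was mixed, with 13 of the 23 lower in the combined knockdown (median -0.11, range -0.81 to 1.36). At an unadjusted p under 0.05, 4 lay lower and 4 higher. Of these, CCNA2 (-0.81) and RRM1 (-0.70) fell by the adjusted limma test (adjusted p = 0.0296 and 0.0357).

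**Figure D2:**
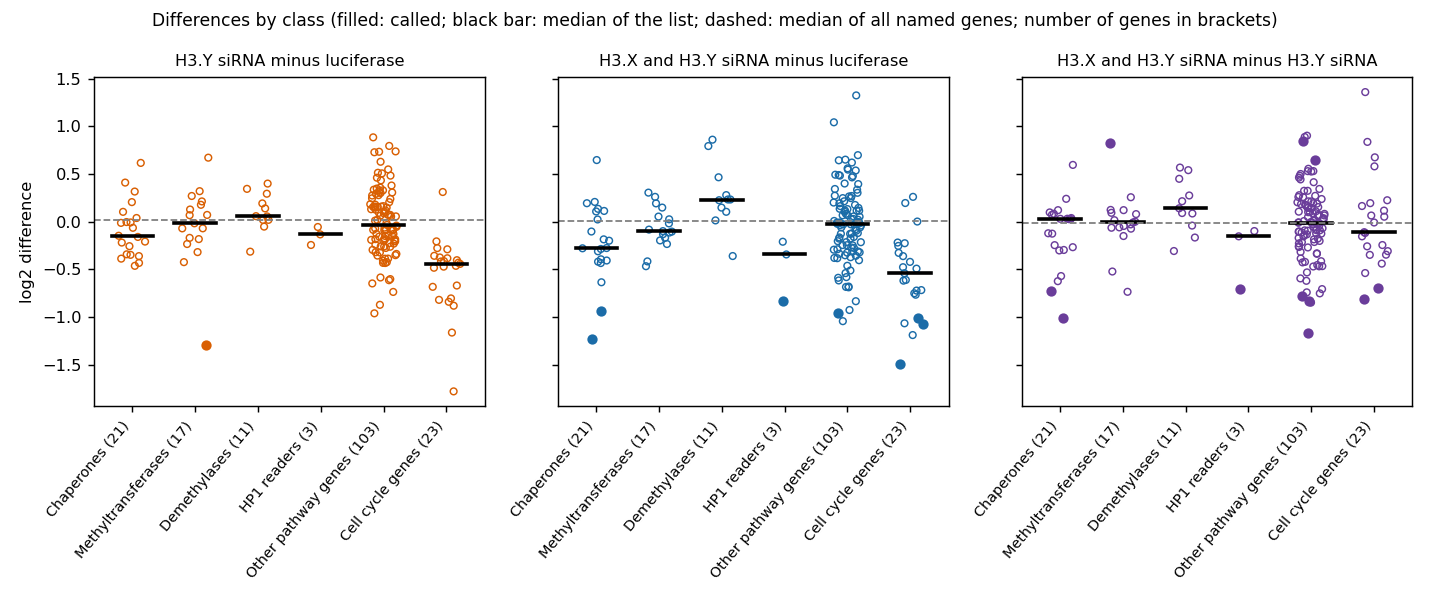
Log2 difference of each member gene from the reference group, at its brightest probe set, by class and comparison, with called genes filled, a black bar at each class median and a dashed line at the median of all named genes. The 103 other pathway genes and 23 cell cycle genes are drawn beside them. Chaperones and HP1 proteins lie mostly below 0 and the 11 demethylase members mostly above 0 against luciferase.

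SUZ12, the subunit that holds Polycomb repressive complex 2 together, was the member that fell after H3.Y siRNA. It measured 9.37 and 9.62 with luciferase siRNA, 8.14 and 8.26 with H3.Y siRNA, and 8.98 and 9.08 in the combined knockdown. The groups did not overlap, and the combined knockdown lay between the other two. SUZ12 fell by 1.29 (SE 0.15, 95% interval -1.64 to -0.94, adjusted p = 0.0377), which is 2.45-fold lower, after H3.Y siRNA. In the combined knockdown its difference from luciferase was -0.47 (SE 0.15) and was not called (adjusted p = 0.195). The 2 knockdowns themselves differed, with SUZ12 higher by 0.82 (SE 0.15), 1.77-fold, in the combined knockdown (limma adjusted p = 0.0339). The call after H3.Y siRNA was lost without either luciferase array (adjusted p = 0.262 and 0.314), without H3.Y siRNA replicate 1 (0.129) and without either combined knockdown array (0.133 each), at differences from -1.41 to -1.17. It was kept without H3.Y siRNA replicate 2.

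The other subunits of the complex did not follow SUZ12 past the test. EZH2, the catalytic subunit of dividing cells, differed from luciferase by -0.17 and -0.24, and EED, which binds the methylated product, by 0.13 and 0.05. EZH1, the catalytic subunit that persists in resting cells, measured 5.98 and 6.40 with luciferase siRNA, 6.83 and 6.88 with H3.Y siRNA, and 6.13 and 6.54 in the combined knockdown. The H3.Y siRNA arrays lay above all others, by 0.67 (SE 0.21, adjusted p = 0.227) over luciferase, and the combined knockdown lay 0.52 (adjusted p = 0.237) below them. After H3.Y siRNA, EZH1 and SUZ12 thus gave the highest and the lowest difference of all 52 genes, EZH1 uncalled. Both their promoter windows held an E2F motif, as did those of HIRA, DNAJC9, EZH2 and CBX3. The latter genes differed from luciferase after H3.Y siRNA by -0.01, -0.34, -0.17 and -0.13, all uncalled. A link between the motif and the differences was not tested.

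Beyond Polycomb, 0 of 13 methyltransferase genes were called in any comparison. Of the bright probe sets with 1 symbol, 0.512%, 3.82% and 9.34% were called, so this count does not set these genes apart. DOT1L, the enzyme that methylates the globular part of H3, measured 6.91 and 6.93 with luciferase siRNA, 7.51 and 6.98 with H3.Y siRNA, and 6.46 and 6.55 in the combined knockdown. The knockdowns lay on opposite sides of luciferase, at 0.32 and -0.42, and differed from each other by -0.74 (SE 0.19, adjusted p = 0.0939). H3.Y siRNA replicate 1 stood above its partner. Without it that difference was -0.47 (adjusted p = 0.169), and without replicate 2 it was called (adjusted p = 0.0309). SETDB1, which silences repeats and retroelements, measured 7.01 and 7.00 with luciferase siRNA, 7.28 and 7.15 with H3.Y siRNA, and 7.30 and 7.32 in the combined knockdown, all 4 knockdown arrays above luciferase (0.21, and 0.30 with adjusted p = 0.331). NSD1, a writer of H3 methylation along genes, differed by -0.43 (adjusted p = 0.228) after H3.Y siRNA and -0.17 in the combined knockdown, and SETD2, the enzyme that follows elongating polymerase, by 0.27 and 0.26.

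The 5 enzymes of the KMT2 and SETD1 families, KMT2A, KMT2C, KMT2D, SETD1A and SETD1B, lay between -0.32 and 0.18 after H3.Y siRNA and between -0.20 and 0.19 in the combined knockdown, with KMT2A lowest in both. KMT2A's dimmer probe set, at a mean of 5.29, gave -0.08 and -0.28. The 5 heterochromatin enzymes SUV39H1, SUV39H2, EHMT1, EHMT2 and SETDB1 lay between -0.24 and 0.21 after H3.Y siRNA and between -0.11 and 0.30 in the combined knockdown. SUV39H2 had its knockdown arrays on opposite sides of luciferase, but by only 0.07 and -0.08. The 2 EHMT2 probe sets held the same values on all 6 arrays, and a second EHMT1 probe set, listed by the platform under the intronic transcript EHMT1-IT1, measured 5.92 and 4.90 on the luciferase arrays alone. As a class, 9 of 17 methyltransferase genes lay below luciferase after H3.Y siRNA (median -0.02) and 11 of 17 in the combined knockdown (median -0.10). After quantile renormalisation 8 of 17 lay below after H3.Y siRNA, so the class has no settled direction there.

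The demethylase members lay mostly above luciferase, with 9 of 11 genes after H3.Y siRNA (median 0.06) and 10 of 11 in the combined knockdown (median 0.23). Over all named genes, 52.4% and 51.8% lay above luciferase. Among the 11 demethylases 0 were called in any comparison, beside 0.512%, 3.82% and 9.34% of the bright probe sets with 1 symbol. Of the 14 other demethylase genes of the wider list, 7 lay above luciferase after H3.Y siRNA (median -0.02) and 6 lay above it in the combined knockdown (median -0.01). KDM4A, which removes methyl groups placed in heterochromatin and along transcribed genes, measured 8.52 and 8.64 with luciferase siRNA, 9.04 and 8.70 with H3.Y siRNA, and 9.49 and 9.39 in the combined knockdown. The 3 groups followed each other without overlap. Its difference in the combined knockdown, 0.86 (SE 0.16), had an adjusted p of 0.0614, and it passed the test in 6 of 12 alternative settings. KDM5B, an eraser of the active promoter mark, measured 6.85 and 7.11 with luciferase siRNA, 7.25 and 7.40 with H3.Y siRNA, and 7.78 and 7.76 in the combined knockdown. It showed the same order, at 0.34 and then 0.79 (SE 0.15, adjusted p = 0.0621) over luciferase. KDM6B, an eraser of the Polycomb mark, measured 5.81 and 5.86 with luciferase siRNA, 6.40 and 6.07 with H3.Y siRNA, and 6.07 and 6.07 in the combined knockdown, with differences of 0.40 (adjusted p = 0.325) and 0.23.

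KDM2A and KDM1A stood apart from this order. KDM2A, which acts at unmethylated CpG islands, measured 7.66 and 7.59 with luciferase siRNA, 7.35 and 7.27 with H3.Y siRNA, and 7.81 and 7.89 in the combined knockdown. It lay below luciferase with H3.Y siRNA (-0.32, adjusted p = 0.346) and above it in the combined knockdown (0.22), and the knockdowns differed by 0.54 (SE 0.13, adjusted p = 0.0725). KDM1A, the flavin-dependent demethylase LSD1, measured 8.97 and 9.07 with luciferase siRNA, 8.92 and 9.02 with H3.Y siRNA, and 8.54 and 8.78 in the combined knockdown. It was the 1 demethylase gene below luciferase in the combined knockdown, by -0.36 (SE 0.14, adjusted p = 0.309), and it lay 0.31 below H3.Y siRNA (adjusted p = 0.327). The other members of the class, KDM2B, KDM3A, KDM3B, KDM4B, KDM4C and KDM5A, lay between 0.02 and 0.19 after H3.Y siRNA. For each of them the H3.Y siRNA arrays overlapped luciferase. In the combined knockdown they lay between 0.01 and 0.46, and KDM3A was highest in both comparisons.

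Of the HP1 proteins, which bind methylated H3 in heterochromatin, all 3 had mean transcript levels below luciferase in both knockdowns. Over all named genes, 47.6% lay below luciferase after H3.Y siRNA and 48.2% in the combined knockdown. CBX3 passed the test against luciferase in the combined knockdown, where 3.82% of the bright probe sets with 1 symbol did. CBX3, which encodes HP1 gamma, measured 8.71 and 8.66 with luciferase siRNA, 8.49 and 8.61 with H3.Y siRNA, and 7.82 and 7.88 in the combined knockdown. The groups did not overlap. CBX3 fell by 0.84 (SE 0.13, adjusted p = 0.0361), 1.79-fold, in the combined knockdown, and it lay 0.70 below the H3.Y siRNA arrays (limma adjusted p = 0.0363). After H3.Y siRNA alone the difference was -0.13 (adjusted p = 0.722). CBX5, which encodes HP1 alpha, measured 9.03 and 9.41 with luciferase siRNA, 8.95 and 9.0 with H3.Y siRNA, and 8.85 and 8.90 in the combined knockdown, with differences of -0.25 (adjusted p = 0.581) and -0.34 (adjusted p = 0.402). CBX1, the HP1 beta gene, differed by -0.06 and -0.21, and its H3.Y siRNA arrays overlapped luciferase. The call of CBX3 against luciferase was lost without either luciferase array (adjusted p = 0.199 and 0.210) or either combined knockdown array (0.294 and 0.183), at differences from -0.87 to -0.80.

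**Figure D3:**
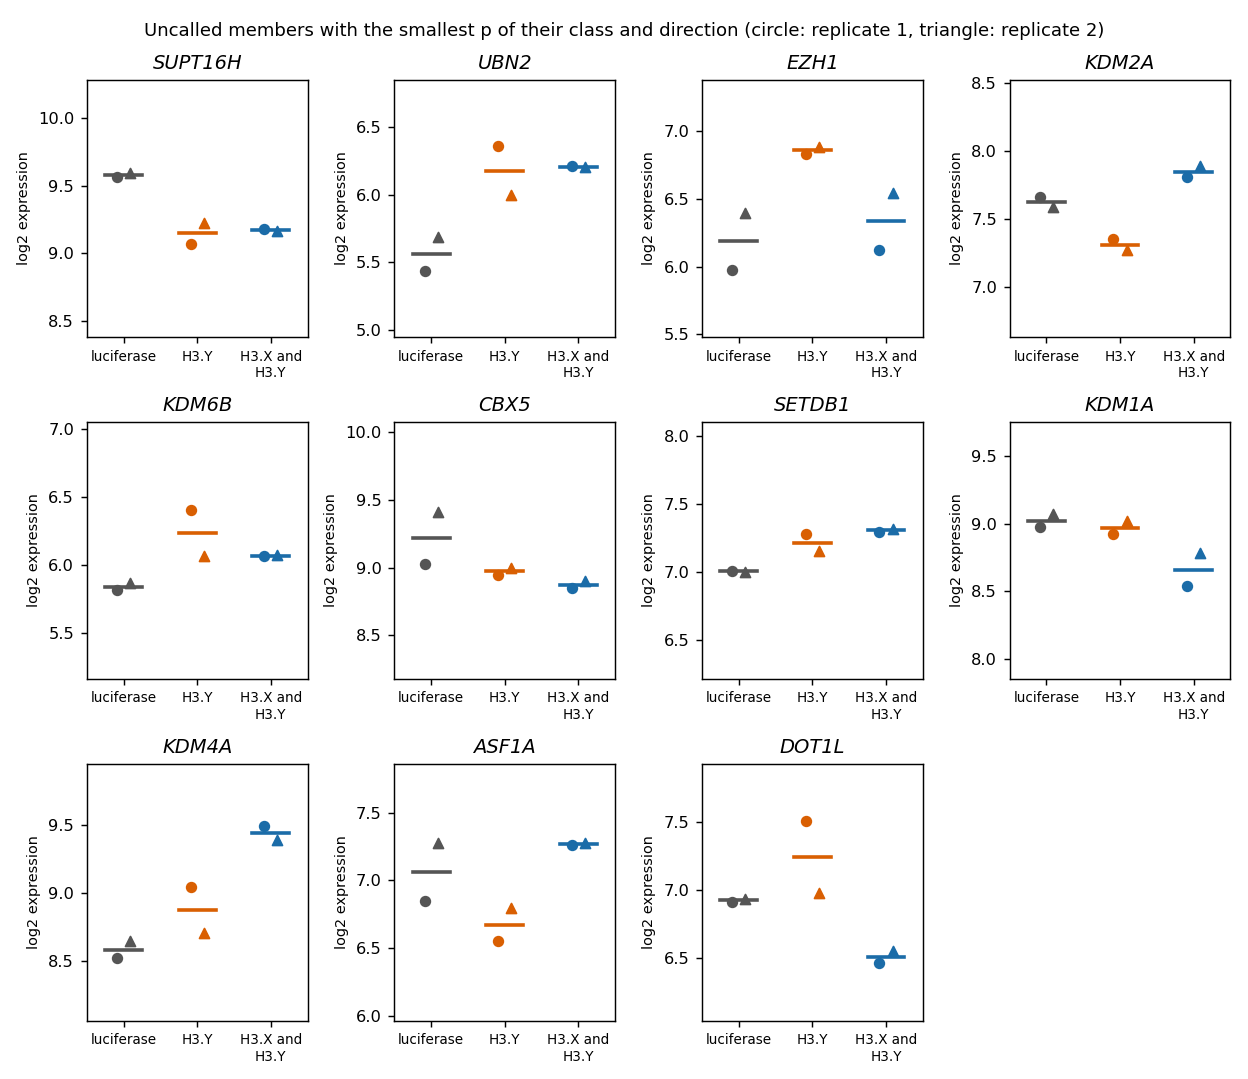
Log2 values on each array of named members that passed no test, as points by siRNA group with a bar at the group mean. KDM4A climbs from 8.52 and 8.64 with luciferase siRNA to 9.49 and 9.39 in the combined knockdown, and KDM2A is lowest with H3.Y siRNA.

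The comparison between the 2 knockdowns sets the combined siRNA treatment against the H3.Y siRNA. It uses no luciferase array except for the shared estimate of spread. The labels do not say that the 2 treatments shared an siRNA. The targeting of H3.X and the use of a different siRNA therefore cannot be told apart in these differences. CHAF1B, SSRP1 and CBX3 were lower in the combined knockdown, by 1.01, 0.72 and 0.70, and SUZ12 was higher by 0.82. These 4 genes thus had a different response to the 2 siRNA treatments by the test of that difference. The calls of SSRP1, SUZ12 and CBX3 were lost whichever of the 6 arrays was left out (adjusted p from 0.0556 to 0.246), and that of CHAF1B without H3.Y siRNA replicate 1 (0.0546) or either combined knockdown array (0.129 and 0.122). Of the 62 probe sets, 6, for DAXX, DOT1L, SUV39H2 and KDM2A, had the arrays of the knockdowns on opposite sides of both luciferase arrays, against 12.9% of the 12313 probe sets with 1 symbol and a mean of at least 5. None of these 6 passed the test between the knockdowns.

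**Figure D4:**
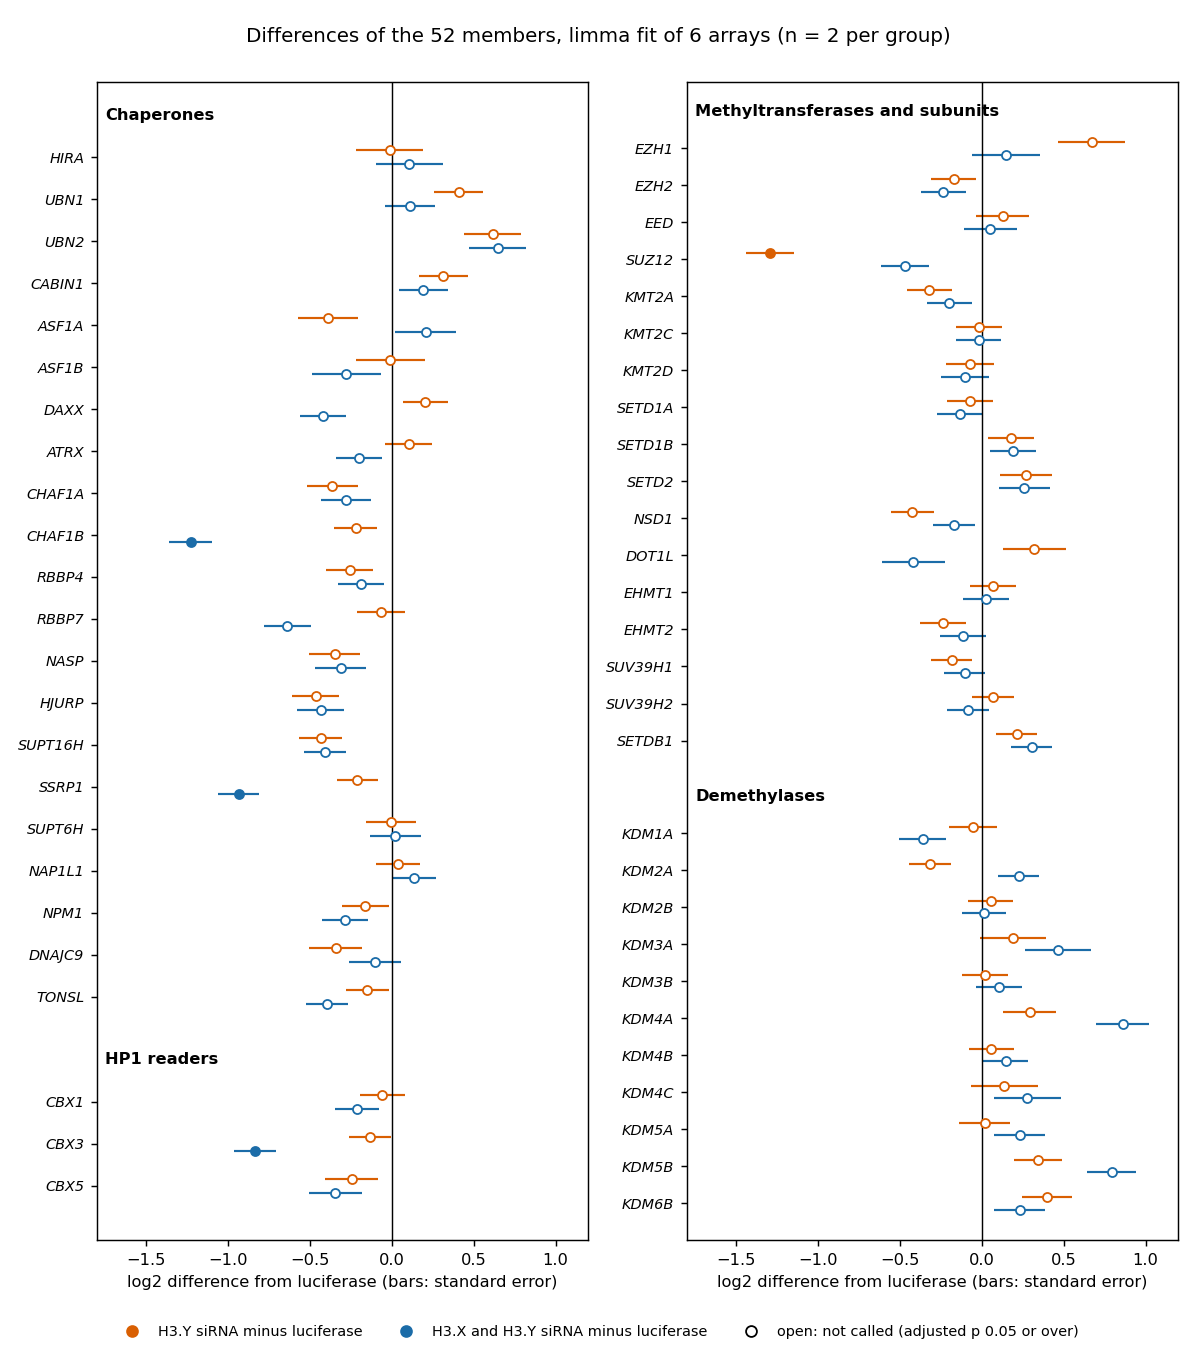
Log2 difference from luciferase of each of the 52 genes at its brightest probe set, with H3.Y siRNA and the combined knockdown in different colours, bars of 1 standard error of the moderated fit, and filled points for called genes. SUZ12 lies lowest after H3.Y siRNA (-1.29) and CHAF1B in the combined knockdown (-1.23), and both comparisons share the 2 luciferase arrays.

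A wider list of 103 genes of the same pathways was called in 0, 1 and 5 genes in the 3 comparisons at the brightest probe set, beside 0.512%, 3.82% and 9.34% of the bright probe sets with 1 symbol, so these counts do not set the list apart. After H3.Y siRNA 53 lay below and 50 above luciferase (13 in each direction at an unadjusted p under 0.05). In the combined knockdown 58 lay below and 45 above, and SMYD2, a lysine methyltransferase of histone and other proteins, fell by 0.96 (SE 0.14, limma adjusted p = 0.0297). Between the knockdowns SMYD2 was lower by 0.83 (adjusted p = 0.0284), SETD3, a methyltransferase of actin, by 0.78 (adjusted p = 0.0419), and PCGF6, a subunit of a variant Polycomb complex, by 1.17 (adjusted p = 0.0225). PCGF6's second probe set was lower by 1.22 between the knockdowns (adjusted p = 0.0207) and by 1.08 in the combined knockdown against luciferase (adjusted p = 0.0441). Higher in the combined knockdown than with H3.Y siRNA were KAT6B, an acetyltransferase of H3, by 0.84 (adjusted p = 0.0307), and its complex partner ING5, by 0.64 (adjusted p = 0.0468; second probe set 0.74, adjusted p = 0.0396). TSPYL1 was called only on its dim second probe set, with a mean of 3.45, which was higher by 1.06 (adjusted p = 0.0195). Its brighter probe set, with a mean of 8.72, was higher by 0.50 and uncalled (adjusted p = 0.0932).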

How the data were processed

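Biotin-labelled total RNA of U2OS cells was hybridised to 6 Affymetrix arrays, as the labels' protocols state. For each probe set the authors deposited 1 log2 value per array, made with oligo (Bioconductor) according to the submitters' processing notes. Its version, the background correction, the summarisation and any genome build were not given in the sources used here. That the logarithm is to base 2 is taken from the range of the values, 0.687 to 14.0. A normalization that equalises arrays hides any change common to all transcripts. Of 33297 probe sets, 19460 had exactly 1 gene symbol in the platform's annotation, 1754 had several and 12083 were unnamed here. Symbols were updated by Entrez ID for 19429 through RefSeq's gene table (GRCh38.p14).

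The 3 comparisons came from 1 fit by limma 3.58.1 under R 4.3.3 (lmFit and eBayes, 1 mean per group over all 6 arrays, 3 residual and 3.43 prior degrees of freedom), with two-sided p-values and Benjamini-Hochberg adjustment across the 33297 probe sets. Class counts and medians used each gene's brightest probe set. Promoter windows were read with Python 3.11.15. The procedure was tested on simulated data.

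The members and gene lists were chosen with earlier results of these data known. Values on every array are given for members called in any comparison and, per class, comparison and direction, for the one with the smallest p; RBBP7, DAXX and KDM5B were added after their values were seen. The fit was repeated with a replicate block, on only the 4 arrays compared, and with quantile renormalisation, median centring, a filter on dim probe sets, an intensity trend and leaving out each array. The 12 genes of the wider lists without a probe set of exactly 1 symbol were not analysed here.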

Additional observations from a re-analysis of the deposited data

Results flagged for a closer look

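In all, 4 members differed in their response to the H3.Y and combined siRNA by the test between the knockdowns (combined minus H3.Y): CHAF1B at -1.01 (limma adjusted p = 0.0163), SSRP1 at -0.72 (0.0317), CBX3 at -0.70 (0.0363) and SUZ12 at 0.82 (0.0339). They made up 6.45% of the 62 member probe sets, beside 4.67% of all probe sets and 9.34% of the bright ones with 1 symbol, so the count is near the background. In 4 more genes the arrays of the knockdowns lay on opposite sides of both luciferase arrays without passing that test, a pattern that 12.9% of bright probe sets with 1 symbol showed, so 6 of 62 member probe sets is no excess. These were DAXX, at -0.62, -0.64 and -0.66 on its 3 probe sets (adjusted p = 0.0613, 0.0591 and 0.0584), DOT1L at -0.74 (0.0939), KDM2A at 0.54 (0.0725) and SUV39H2 at -0.15 (0.625). With 2 arrays a group, no array was tested for standing apart from its group.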

How the results depend on the processing

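The count of members called after H3.Y siRNA, 1 as reported, was 0 with only the 4 arrays compared and 0 to 1 when each array was left out in turn. In the combined knockdown the count, 3 as reported, was 6 without probe sets of a mean under 5, 5 with an intensity trend, and 0 to 4 when each array was left out. Between the knockdowns the count, 4 as reported, was 1 with only the 4 arrays compared, 10 without dim probe sets, 8 with an intensity trend, and 0 to 3 when each array was left out. Leaving out an array or a group leaves fewer degrees of freedom, and a lone array is then assumed to vary like the other groups; leaving out dim probe sets leaves fewer tests. The dim filter added calls for RBBP7, KDM4A and KDM5B in the combined knockdown, and for DAXX, RBBP7, DOT1L and KDM2A between the knockdowns. Quantile renormalisation added KDM4A in the combined knockdown. With the replicate number as a block the counts stayed at 1, 3 and 4, for the same genes (68, 750 and 1778 calls over all probe sets, against 93, 614 and 1554). Deviations of same-numbered arrays correlated at 0.22, 0.28 and 0.12, but 2 numbers per group do not show a pairing. Of the 26 followed differences of named members, 0 changed sign over the 12 alternatives. Quantile renormalisation moved the chaperone medians to -0.06 after H3.Y siRNA and -0.20 in the combined knockdown. The number of arrays limits the precision.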
